A study of Equus caballus with 17 samples.

Results

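Cultured horse skeletal muscle cells kept at 1% O2 were compared with the same cells kept at 21% O2, over both exposure times. The comparison used 14 of the 17 libraries of the series, grouped by oxygen level and time as their labels give them. At 1% O2 there were 3 libraries from cells harvested after 48 h and 2 after 72 h. At 21% O2, the level of a standard incubator, there were 5 libraries at 48 h and 4 at 72 h. The 3 libraries at 3% O2 were left out. All groups share 1 donor, a foal that the labels call preterm and 10 months old without saying whether this counts from birth or from conception, and its muscle (gluteus medius) was taken after death. All cultures were digested with pronase, pre-plated against fibroblasts, grown in medium with foetal bovine and horse serum, and seeded on gelatin a day before the oxygen level was set. The labels speak of technical replicates and name no separate animals, so the p-values measure the spread among these libraries only, which may be technical. In what follows the libraries at 1% O2 are called hypoxic and those at 21% O2 normoxic, each with its time and the number its title gives.

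Cells sense oxygen mainly through the hypoxia-inducible factors. Prolyl hydroxylases that need oxygen mark the alpha subunits of these factors for breakdown, and at low oxygen the subunits persist and switch on genes of glycolysis, angiogenesis and cell survival. In muscle precursor cells low oxygen is also known to affect proliferation and the course of differentiation. Genes in these data are known by Ensembl gene IDs only. None of the 38849 IDs could be paired with a symbol (0 matched in the reference table), so the levels of hypoxia-inducible factor targets, of muscle genes and of fibroblast markers were not examined, and the labelled cell type was not checked against its markers. The results are therefore given as counts of genes, as values of single libraries and as levels of 4 genes named by ID. In bulk RNA, fewer cells of a type and less RNA per cell cannot be told apart.

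The 5 libraries at 1% O2 did not resemble each other as a group. Total counts of the 14 libraries ran from 12552499 to 24274627, and 18014 to 19480 genes had at least 1 read. Whole profiles were compared by the median absolute difference in log2 CPM (log2 of counts per 1000000 reads) over 9950 genes averaging 100 counts or more. For 3 of the 5 libraries at 1% O2 the closest library was one at 21% O2. Hypoxic 48 h library 1 lay 0.0971 from normoxic 48 h library 1, and hypoxic 48 h library 3 lay 0.118 from normoxic 48 h library 3. Hypoxic 72 h library 1 lay 0.126 from normoxic 48 h library 4. The other 2, hypoxic 48 h library 2 and hypoxic 72 h library 2, were each other's closest library, at 0.201, although their exposure times differ. Among the 9 libraries at 21% O2, the closest library was one at the same oxygen level for 6. With no gene known by symbol, no marker of low oxygen could be used to check the oxygen labels, and whether any culture or label was exchanged cannot be settled from these files. Every difference between 1% and 21% O2 given here rests on the labels as they stand.

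Principal components of the 14 libraries showed the same arrangement. The first component held 48.7% of the variance. On it the 4 libraries at 21% O2 for 72 h scored 26.8 to 35.3 and both 1% O2 libraries at 72 h scored below 0, at -27.3 and -10.3. At 48 h, hypoxic library 3 (25.0) and normoxic library 3 (27.0) lay opposite to the other libraries of their groups, which scored -30.6 to -15.8. These 2 libraries also had the largest share of reads in the 100 most abundant genes, 33.8% and 34.8%, against 26.2% to 31.9% in the other 12. Whether that share has a part in their position was not tested. On the third component, with 14.4% of the variance, hypoxic 48 h library 2 scored 28.8 and hypoxic 72 h library 2 scored 27.3, while the other 12 libraries lay between -18.6 and 10.5. None of the first 4 components separated the oxygen levels by its scores over all 14 libraries, though the first did so at 72 h. For the first 4 components, exact two-sided permutation tests with labels exchanged within each time (840 exchanges) gave p = 0.255, 0.121, 0.356 and 0.475, and all 4 were 0.475 after Benjamini-Hochberg adjustment over the 4.

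**Figure D1:**
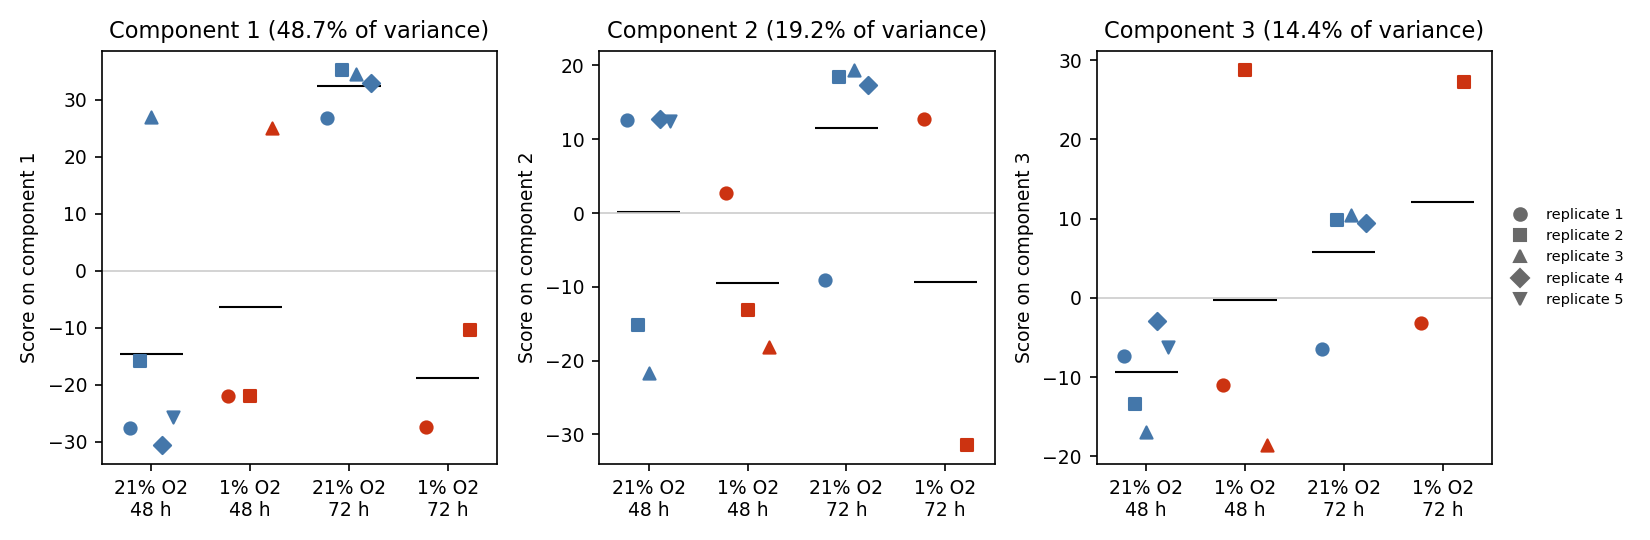
Scores of the 14 libraries on the first 3 principal components of log2 CPM (vertical axes, in score units), by oxygen level and time (horizontal axes), blue for 21% and red for 1% O2, with the marker giving the replicate number and the bar the group mean. On component 3, hypoxic 48 h library 2 (28.8) and hypoxic 72 h library 2 (27.3) lie above the other 12 libraries.

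Over the whole profile, libraries of the same time but unlike oxygen differed by a little more than libraries of the same time and like oxygen, a gap that did not pass its test. The mean difference was 0.278 ± 0.0865 in log2 CPM (SD over pairs of libraries) between oxygen levels and 0.235 ± 0.101 within them, a gap of 0.0436 (exact permutation test within time, one-sided p = 0.0976). At 48 h the 3 libraries at 1% O2 differed from each other by a mean of 0.311, more than from the 21% O2 libraries (0.256). Among themselves, the 21% O2 libraries at 48 h also differed by a mean of 0.256. At 72 h the 2 libraries at 1% O2 lay 0.332 apart, against 0.319 between oxygen levels and 0.144 among the 4 libraries at 21% O2. Oxygen held 9.62% of the variance after time was taken out (exact permutation test within time, one-sided p = 0.173). Time after oxygen held 16.7%, the oxygen by time term 15.0%, and spread within the 4 groups 58.0%. Each library was also left out in turn, and the p-values of these runs are not adjusted for their number. The gap was 0.0730 (exact one-sided permutation p = 0.0381) without hypoxic 48 h library 1 and 0.0721 (exact one-sided permutation p = 0.0190) without normoxic 48 h library 3. It was 0.0183, 0.0199 and 0.0197 without normoxic 72 h libraries 2, 3 and 4 (exact one-sided permutation p = 0.202, 0.186 and 0.202). The share held by oxygen was 17.5% (exact one-sided permutation p = 0.0190) without hypoxic 48 h library 3 and 4.94% without hypoxic 72 h library 2.

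No gene passed the test of the main effect of oxygen. With time as a covariate, 0 of 14359 genes tested (0%) had an adjusted p under 0.05 by edgeR's quasi-likelihood test, and the smallest adjusted p was 0.563. Limma-voom also called 0 genes, and DESeq2 called 3, all higher at 1% O2 (DESeq2 adjusted p of 0.0352 for the lowest). Before adjustment 1144 genes, 7.97% of those tested, had a p under 0.05, with levels higher at 1% O2 for 699 and lower for 445. By limma-voom 1281 and by DESeq2 1257 genes had an unadjusted p under 0.05. For 247 genes the edgeR p was under 0.01, and for 19 under 0.001. The split between directions depended on the scaling and the test. With library size alone it was 471 higher and 550 lower, but with DESeq2 size factors 713 and 441, close to the main fit. By limma-voom, another test on the same scaling, it was 489 and 792. The number moved by over 1.5 times without any of 3 libraries at 1% O2. It was 656 without hypoxic 48 h library 2, 526 without hypoxic 72 h library 2 and 2885 without hypoxic 48 h library 3, each still with 0 genes past adjustment.

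**Figure D2:**
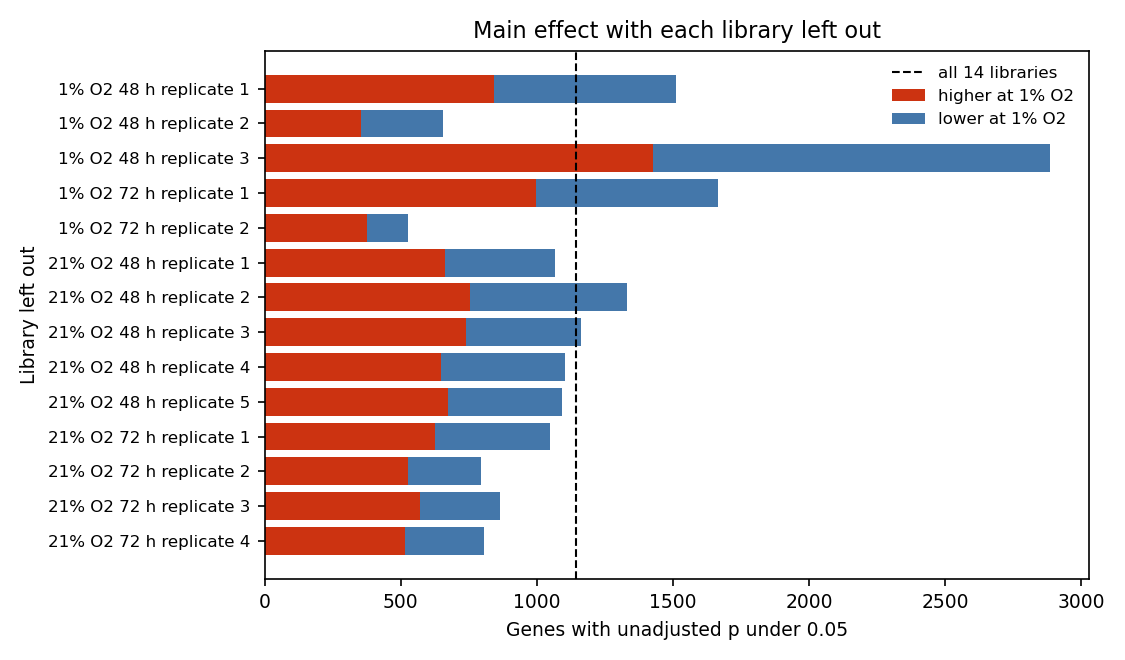
Genes with unadjusted p under 0.05 for 1% against 21% O2 with time as covariate (horizontal axis, number of genes), with each of the 14 libraries left out in turn (vertical axis); red genes are higher and blue genes lower at 1% O2, and the dashed line marks the 1144 genes of all 14 libraries. The number runs from 526 without hypoxic 72 h library 2 to 2885 without hypoxic 48 h library 3.

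Fitted differences were small for most genes. The median log2 fold change of 1% against 21% O2 was 0.01, and the middle 50% of genes lay between -0.15 and 0.14. A fold of at least 2 was reached by 311 genes (2.17%), 166 of them higher and 145 lower at 1% O2. At single times, 277 genes passed 2-fold at 48 h and 1571 at 72 h. The 95% intervals show which sizes remain possible for the weighted average over both times. They do not bound the difference at either time alone. For 11747 genes, 81.8% of those tested, the whole interval lay within a 2-fold difference in either direction, and for 7940 genes (55.3%) within a 1.5-fold difference. Precision followed abundance. Among 1874 genes above 100 CPM the median half-width of the interval was 0.27 on the log2 scale and 95.4% of intervals lay within 2-fold. Among 1742 genes under 1 CPM the half-width was 0.84 and 32.0% lay within 2-fold, so that a 2-fold difference remained possible for most of these genes. An unadjusted p under 0.05 was seen for 7.20% of genes above 100 CPM and 6.99% of those at 10 to 100 CPM, beside 7.97% of all genes. Those above 100 CPM were mostly higher at 1% O2, 118 against 17 lower, and those of 10 to 100 CPM gave 270 higher and 219 lower. None passed adjustment. These splits by class were not examined under the other scalings and tests, some of which changed the split over all genes.

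The oxygen difference had the same sign at both times for fewer genes than not. The times share no library. Across all genes tested, the log2 fold change of 1% against 21% O2 had the same sign at 48 h and 72 h for 6802 (47.4%), with 3475 higher at both times and 3327 lower at both. Differences were also unequal in size, with a median absolute log2 fold change of 0.13 at 48 h and 0.30 at 72 h. By numbers of libraries alone, the 48 h difference carries 58.4% of the weight in the main effect and the 72 h difference 41.6%. With equal weight for both times, 2015 genes had an unadjusted p under 0.05 and again 0 passed adjustment by edgeR (smallest adjusted p = 0.135). The sign was shared by 43.4% of genes above 100 CPM, 46.8% at 10 to 100 CPM, 49.7% at 1 to 10 CPM and 48.8% under 1 CPM. Without hypoxic 48 h library 3 the share with the same sign was 64.9% of all genes, and without hypoxic 48 h library 2 it was 36.3%.

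**Figure D3:**
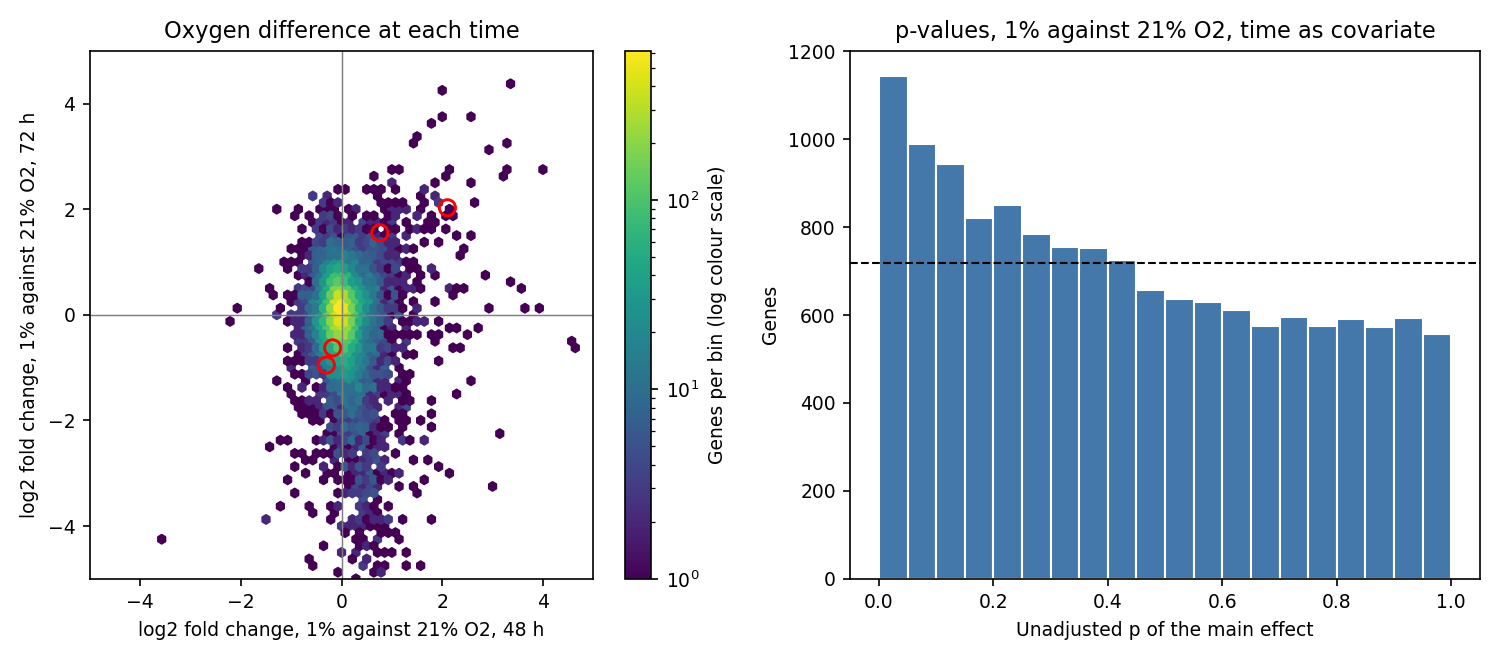
Left, log2 fold change of 1% against 21% O2 at 48 h (horizontal) and at 72 h (vertical) per gene, coloured by genes per bin on a log scale, with the 4 genes named in the text ringed in red; 23 genes beyond ±5 are not shown. Right, number of genes by unadjusted p of the main effect in bins of 0.05, where the dashed line marks the 718 genes per bin of an even spread and the lowest bin holds 1144.

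Within the same fit of 14 libraries, 0 genes (0%) were called between oxygen levels at 48 h by edgeR (383 at an unadjusted p under 0.05), and 392 (2.73%) at 72 h. Of the 392, 93 were higher and 299 lower at 1% O2 for 72 h. The count and the split depended on the fit: with the 72 h libraries alone, 1705 genes were called by edgeR, 696 higher and 1009 lower. At 48 h the same sign was seen for 47 of the 93 higher genes and 78 of the 299 lower genes, together 125 of 392, beside 47.4% of all genes, and the median log2 fold change of the 392 was 0.10 there. In the main effect, which holds the same 72 h libraries, 142 of the 392 had an unadjusted p under 0.05, beside 7.97% of all genes. The difference between times was tested as an oxygen by time term. It was called for 8 genes (0.0557%) by edgeR, all with adjusted p near 0.0490 and all more negative at 72 h. Their median log2 fold change was 0.25 at 48 h and -2.38 at 72 h, with opposite signs at the 2 times for all 8. This number rested on single libraries. It was 803 without normoxic 48 h library 3, 191 without normoxic 72 h library 1, 156 and 32 without hypoxic 48 h libraries 2 and 1, and 0 without each of the other 10 libraries.

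Libraries of the 2 oxygen levels were also compared without a model, as genes whose libraries do not overlap. The smaller the groups, the more genes are apart by chance alone, most of all with 2 against 4 libraries at 72 h. The shares at 48 h and 72 h can therefore not be compared. None of these counts was set against the number that group sizes alone would give. At 48 h all 3 libraries at 1% O2 lay above all 5 at 21% O2 for 129 genes and below for 91, together 1.53% of genes tested. At 72 h the 2 libraries at 1% O2 lay above the 4 at 21% O2 for 2538 genes and below for 2693, together 36.4%. Separation at both times in the same direction was seen for 49 genes (0.341%), 24 higher and 25 lower at 1% O2. Their differences were modest, with a median log2 fold change of 0.34 for the 24 and -0.36 for the 25. For another 14 genes the libraries were apart at both times but in opposite directions. All 5 libraries at 1% O2 lay outside the range of all 9 at 21% O2, whatever the time, for 14 genes (0.0975%), 8 above and 6 below.

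Higher levels of 2-fold or more that recurred at both times were seen mostly in the 2 hypoxic libraries numbered 2, and the few lower ones were not. A fold of at least 2 at each time in the same direction was reached by 92 genes (0.641%), 80 higher and 12 lower at 1% O2, and 63 genes passed 2-fold at both times in opposite directions. For 76 of the 80 higher genes, hypoxic 48 h library 2 and hypoxic 72 h library 2 were the 2 highest of all 14 libraries. Over all genes tested this was so for 1298, or 9.04%. The genes were chosen by the values of these libraries, so this is a description and not a test. For the 80, the median difference from the mean of the 21% O2 libraries of the same time was 2.34 in log2 CPM in hypoxic 48 h library 2 and 2.39 in hypoxic 72 h library 2. In the other 1% O2 libraries it was 0.26 and 0.20 in hypoxic 48 h libraries 1 and 3 and 0.04 in hypoxic 72 h library 1. The 12 lower genes went another way. Hypoxic libraries numbered 2 were the 2 lowest for 1 of the 12, and the median difference was -2.27 and -2.06 in hypoxic 72 h libraries 1 and 2, against -0.89 in hypoxic 48 h library 2. Of the 80, 29 had a mean of at least 1 CPM and 20 averaged at least 5 CPM in the oxygen group with the higher mean.

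The genes with an unadjusted p under 0.05 showed the same ordering of libraries, again as a description of genes chosen on these values. For the 699 higher genes the median difference from 21% O2 of the same time was 0.63 in hypoxic 48 h library 2 and 0.86 in hypoxic 72 h library 2. It was 0.16, 0.12 and 0.29 in hypoxic 48 h library 1, hypoxic 48 h library 3 and hypoxic 72 h library 1. Hypoxic 72 h library 2 lay above all 21% O2 libraries of its time for 657 of the 699 genes, and hypoxic 48 h library 3 did so for 221. For the 445 lower genes the median difference was -0.52 in hypoxic 48 h library 2 and -0.89 in hypoxic 72 h library 2, against -0.15, -0.07 and -0.50 in hypoxic 48 h library 1, hypoxic 48 h library 3 and hypoxic 72 h library 1. In both directions the largest median was that of hypoxic 72 h library 2, and for the lower genes hypoxic 48 h library 2 and hypoxic 72 h library 1 were nearly equal. The 2 libraries numbered 2 were the 2 highest of all 14 for 404 of the 699 higher genes (57.8%, beside 9.04% of all genes) and the 2 lowest for 213 of the 445 lower genes (47.9%, beside 10.2% of all genes). Leaving out both hypoxic libraries numbered 2 gave 435 genes with an unadjusted p under 0.05, 325 of them higher, and 0 passed adjustment by edgeR.

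**Figure D4:**
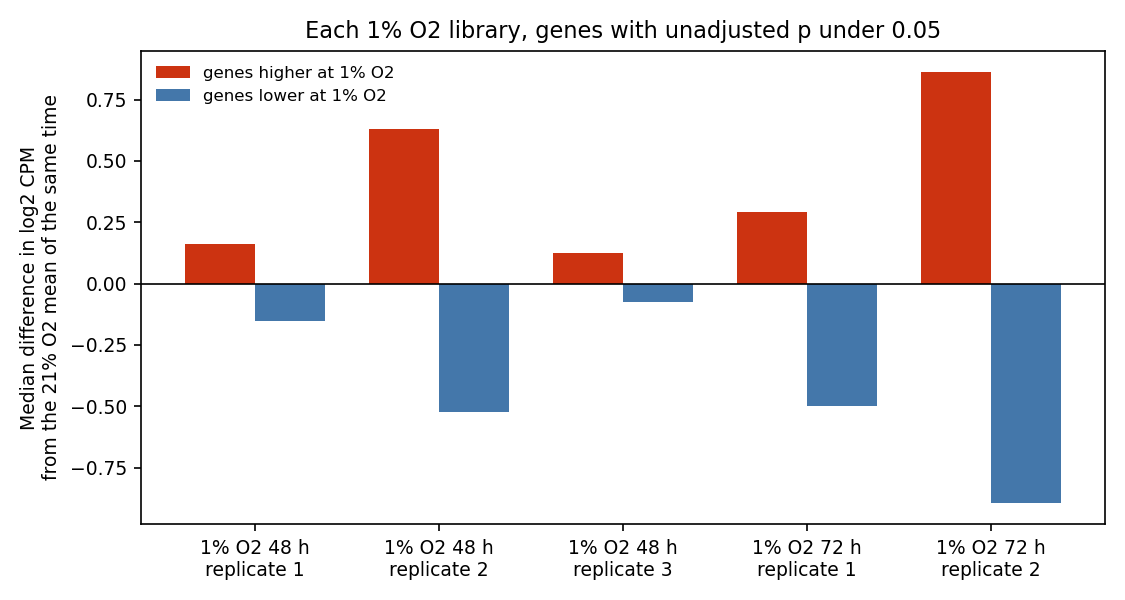
Median difference in log2 CPM (vertical axis) between each 1% O2 library (horizontal axis) and the mean of the 21% O2 libraries of the same time, over the 699 genes higher (red) and 445 genes lower (blue) at 1% O2 with unadjusted p under 0.05. The red bars are tallest in hypoxic 48 h library 2 (0.63) and hypoxic 72 h library 2 (0.86).

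Since no gene passed, the 4 genes named are those with the smallest unadjusted p in each direction. They come from 10292 genes averaging at least 5 CPM in the oxygen group with the higher mean. None of them passed the main effect by edgeR (adjusted p = 0.563 for each). Their values are given for every library because they show what the main effect rests on.

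ENSECAG00000040937 had the smallest unadjusted p of all genes tested. At 48 h it stood at 6.03, 13.5 and 5.70 CPM in hypoxic libraries 1 to 3, and at 4.14 to 5.47 CPM with a median of 4.96 in the 5 libraries at 21% O2. At 72 h it stood at 7.77 and 13.3 CPM in hypoxic libraries 1 and 2, and at 3.63, 3.39, 3.61 and 3.71 CPM in normoxic libraries 1 to 4. Every 1% O2 library lay above every 21% O2 library, and library 2 was the highest at each time. The log2 fold change over both times was 1.10 ± 0.22 (SE; 95% interval 0.64 to 1.57; edgeR p before adjustment = 0.000157). It was 0.76 ± 0.26 at 48 h (SE, edgeR adjusted p = 1.00) and 1.55 ± 0.31 at 72 h (SE, edgeR adjusted p = 0.0271), and the difference between times did not pass by edgeR (adjusted p = 0.400). DESeq2 called this gene in the main effect (DESeq2 adjusted p = 0.0352). Without both hypoxic libraries numbered 2 the log2 fold change was 0.58.

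ENSECAG00000009523 had the largest fitted difference of the 4. At 48 h it stood at 2.33, 26.3 and 3.49 CPM in hypoxic libraries 1 to 3, and at 1.76 to 3.47 CPM with a median of 2.12 in the 5 libraries at 21% O2. At 72 h it stood at 3.21 and 9.87 CPM in hypoxic libraries 1 and 2, and at 2.10, 1.54, 1.39 and 1.36 CPM in normoxic libraries 1 to 4. Hypoxic library 2 was far above the rest at each time, and hypoxic 48 h library 1 lay inside the range of 21% O2. The log2 fold change was 2.07 ± 0.46 over both times (SE; 95% interval 1.10 to 3.05), 2.10 ± 0.61 at 48 h and 2.03 ± 0.74 at 72 h (SE), and neither time passed by edgeR (adjusted p = 1.00 and 0.140). It was 1.17 without hypoxic 48 h library 2 and 0.52 without both hypoxic libraries numbered 2. DESeq2 called this gene too (DESeq2 adjusted p = 0.0352). The third gene called by DESeq2 in the main effect had log2 fold changes by edgeR of 1.77 ± 0.53 at 48 h and 1.70 ± 0.61 at 72 h (SE).

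ENSECAG00000046698 was lower at 1% O2 within each time, by a small margin at 48 h and a larger one at 72 h. At 48 h it stood at 3.53, 3.30 and 2.88 CPM in hypoxic libraries 1 to 3, and at 3.67 to 4.90 CPM with a median of 3.69 in the 5 libraries at 21% O2. At 72 h it stood at 4.21 and 3.61 CPM in hypoxic libraries 1 and 2, and at 6.29, 7.30, 8.47 and 8.25 CPM in normoxic libraries 1 to 4. The oxygen levels did not overlap at either time, and the 72 h levels at 1% O2 were close to those of 21% O2 at 48 h. The log2 fold change was -0.57 ± 0.16 over both times (SE; 95% interval -0.90 to -0.23), -0.30 ± 0.18 at 48 h (SE, edgeR adjusted p = 1.00) and -0.95 ± 0.21 at 72 h (SE, edgeR adjusted p = 0.0336).

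ENSECAG00000022172 was the most abundant of the 4. At 48 h it stood at 71.7, 62.1 and 68.4 CPM in hypoxic libraries 1 to 3, and at 71.9 to 81.0 CPM with a median of 75.0 in the 5 libraries at 21% O2. At 72 h it stood at 65.5 and 84.1 CPM in hypoxic libraries 1 and 2, and at 103, 130, 113 and 116 CPM in normoxic libraries 1 to 4. The levels were apart at each time, by less than 1 CPM at 48 h. The log2 fold change was -0.36 ± 0.10 over both times (SE; 95% interval -0.58 to -0.14), -0.18 ± 0.11 at 48 h (SE, edgeR adjusted p = 1.00) and -0.63 ± 0.13 at 72 h (SE, edgeR adjusted p = 0.0321). In neither lower gene was hypoxic library 2 the lowest at both times, and without both libraries numbered 2 the log2 fold changes were -0.51 for ENSECAG00000046698 and -0.36 for ENSECAG00000022172. All 4 genes kept their direction under each of the 33 alternatives tried, with edgeR, DESeq2 or limma-voom adjusted p from 0.00848 in the 72 h libraries alone to 1. The 4 were chosen by their p in these same libraries, which the alternatives largely reuse. A kept direction is therefore a description and not a test. The size moved more than the direction for the higher pair. With 3 surrogate variables (factors estimated from the data) the log2 fold change was 0.98 for ENSECAG00000009523 and 0.63 for ENSECAG00000040937, and for ENSECAG00000009523 it was 1.34 with a replicate block and 1.46 by limma-voom.

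**Figure D5:**
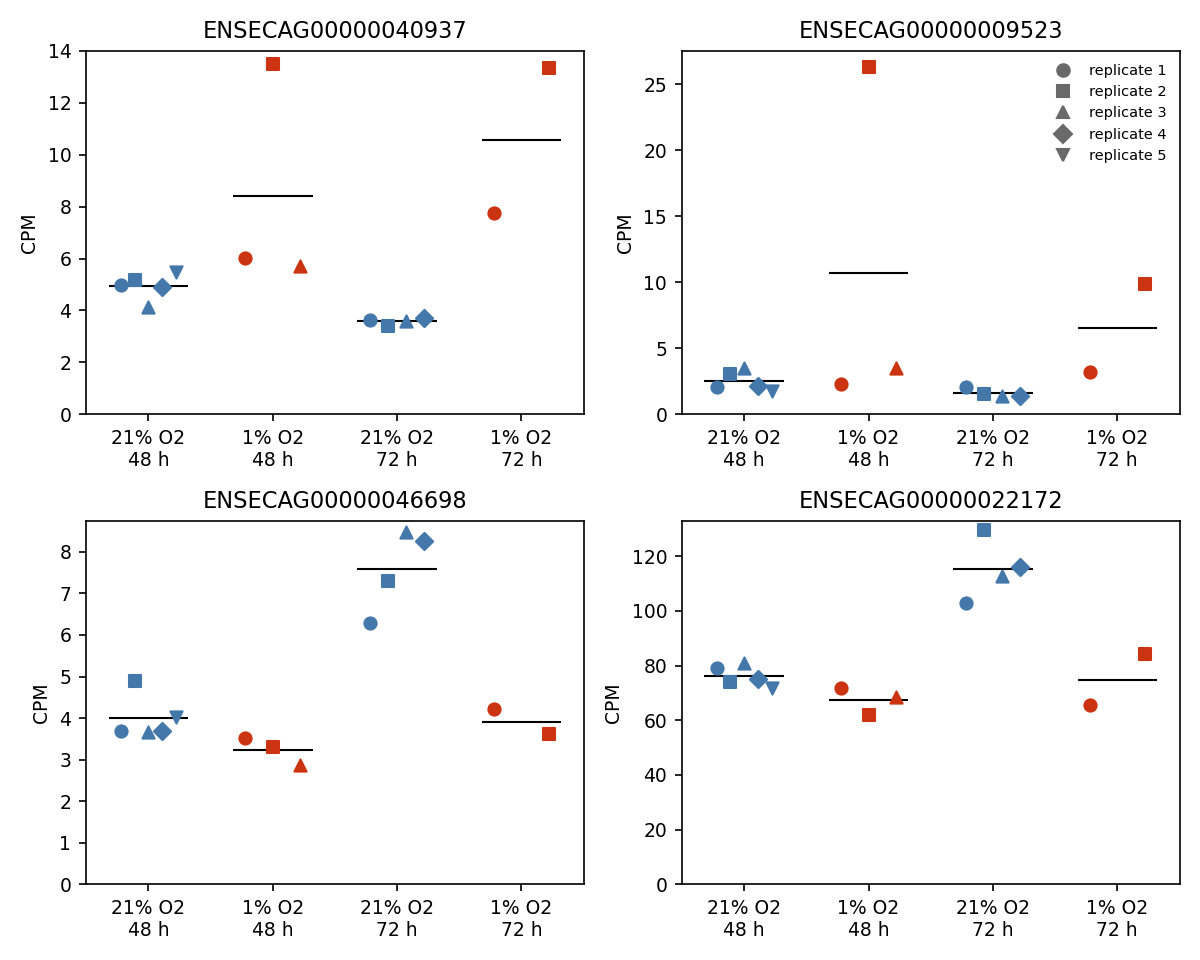
Level of the 4 named genes in CPM (vertical axes, from 0) in each library by oxygen level and time (horizontal axes), blue for 21% and red for 1% O2, with the marker giving the replicate number and the bar the group mean. In the upper panels hypoxic library 2 is highest at each time (13.5 and 13.3 CPM for ENSECAG00000040937, 26.3 and 9.87 CPM for ENSECAG00000009523), and in the lower panels the 21% O2 libraries at 72 h lie above all others.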

How the data were processed

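RNA-seq read counts per Ensembl gene ID were used as the authors deposited them, as raw whole-number counts in 1 table per library. The submitters' processing notes name the build EquCab3.0 and, among their tools, STAR 2.7.10a, HTSeq 0.13.5, fastp 0.23.2 and DESeq2 1.38.0, with no role, order or settings. Annotation release, strand setting and the treatment of multi-mapped reads were not stated there, and counts of overlapping genes and near-identical copies are therefore uncertain.

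Oxygen (1% against 21% O2) was tested with time as a covariate by edgeR 4.0.16 in R 4.3.3 (quasi-likelihood test, TMM, filterByExpr on the 4 groups), with Benjamini-Hochberg adjustment over 14359 of 25124 genes with a count. Differences at each time and their difference came from a fit with 1 mean per group. The common biological coefficient of variation was 26.7%. Standard errors are those implied by the test statistic. CPM used TMM-scaled library sizes, and log2 CPM a prior count of 2. The fit was also run on simulated counts of independent libraries with a common dispersion. That run does not show how the test behaves on libraries with structure such as these. No 2 libraries agreed within sampling noise (chi-square per degree of freedom at least 3.71).

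The libraries, gene lists and tests were chosen with earlier results of these data known. Lists by symbol could not be applied. With no symbols and no calls, the rule for naming genes took the 2 smallest p-values in each direction. It took them among genes averaging 5 CPM or more in the oxygen group with the higher mean, whichever group that was. Alternatives were other scalings, filters and tests (DESeq2 1.42.0, limma 3.58.1, sva 3.50.0), a replicate block, each time alone, equal weights, all 17 libraries and each library left out. Leaving out 2 pairs of libraries that stand apart, and other thresholds, were added after seeing the data.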

Additional observations from a re-analysis of the deposited data

Results flagged for a closer look

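In groups of 4 and 5 libraries, 20 sets of values were examined for 1 library far from the rest, and 5 showed one, where chance alone gives about 1 in 20. The sets reuse the same libraries and are not independent. Normoxic 48 h library 3 scored 27.0 on the first principal component, while the other 4 libraries of its group scored -30.6 to -15.8. Normoxic 72 h library 1 stood apart in 3 measures. It scored -9.03 on the second component (the others 17.3 to 19.4) and -6.40 on the third (the others 9.48 to 10.5), and 31.0% of its reads fell in the 100 most abundant genes (the others 26.2% to 27.0%). ENSECAG00000046698 stood at 4.90 CPM in normoxic 48 h library 2, against 3.67 to 4.02 CPM in the other 4 libraries.

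The oxygen difference itself differed between 48 h and 72 h for 8 genes by edgeR's oxygen by time term (adjusted p from 0.0489 to 0.0490).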

How the results depend on the processing

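The count of 0 genes for the main effect held under every alternative except DESeq2 (3) and the 72 h libraries alone (1705, 696 higher and 1009 lower). Unadjusted counts that moved by over 1.5 times from 1144 were 2015 with equal weights, 2077 with all 17 libraries, 231 at 48 h alone, 4033 at 72 h alone, 182 against a fold of 1.5, and, leaving out the 2 libraries opposite on the first component, 2752. For the oxygen by time term, 8 genes became 0 with DESeq2 size factors, limma-voom, all 17 libraries or a threshold of 0.04, 142 with library size only, 194 without the low-count filter, 419 by DESeq2, 4 without both libraries apart on the third component, 518 without both opposite on the first, and 0 to 803 with each library left out. A group left with 1 library was assumed to vary like the others. The same sign at both times was seen for 10429 genes without the filter (41.5% of more genes). Intervals within 2-fold stayed within 1.5 times of 11747 genes throughout. With each library left out the whole-profile gap ran from 0.0183 to 0.0730 and the share of variance from 4.94% to 17.5%. Without both libraries opposite on the first component they were 0.0741 and 16.6%, past the threshold; these libraries were picked by expression, which makes such p-values too small.

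The replicate numbers were not taken as pairs. Same-numbered libraries correlated in their deviations with r = 0.61, -0.06 and 0.85 for numbers 1 to 3 at 48 h, and hypoxic 48 h library 2 went best with number 4 (0.48). At 72 h, r was -0.27 and -0.21 for numbers 1 and 2. With 2 hypoxic libraries at 72 h, their deviations mirror each other, so these values are not 2 separate checks of pairing. With a replicate block 0 genes were called and 808 had an unadjusted p under 0.05, 403 higher and 405 lower. The whole-profile p with labels exchanged within pairs was 0.125 (exact permutation test, one-sided, 32 exchanges).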
